A study of Homo sapiens with 2 samples.

Results

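Chemokines are small secreted proteins that steer the movement of leukocytes and other cells by binding receptors on their surface. They are grouped by the spacing of their first cysteines into CC and CXC chemokines, and many are switched on by inflammatory signals that act through the transcription factor NF-kB. The 9 chemokine genes described here are CCL20, CCL2, CCL5, CXCL1, CXCL2, CXCL3, CXCL5, CXCL8 and CXCL16, taken by gene symbol from 24462 symbols in all. CXCL1, CXCL2, CXCL3, CXCL5 and CXCL8, which attract neutrophils, lie in one cluster on chromosome 4. CCL20, which attracts cells bearing CCR6, lies on chromosome 2, and CCL2, CCL5 and CXCL16 lie on chromosome 17.

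Messenger RNA was compared between MDA-MB-231, an established triple negative breast cancer line, and RT-R-MDA-MB-231, a radiotherapy-resistant subline obtained by giving it X-rays in 2 Gy doses until 50 Gy had been reached. Both lines were grown in the same serum-supplemented medium, and the labels name no added cytokine or drug. Each line was represented by 1 library of 3' tag counts, and whether the resistant line is a clone or a pool is not given in the sources used here. The parental library held 9255008 counts and the RT-R library 10014804. Because there was a single library of each line, differences could not be checked against replicates and p-values are not given. Intervals are at the 95% level and cover counting error alone, and reads copied by PCR are not independent molecules. In RNA from a whole culture, more cells expressing a gene and more RNA per cell cannot be told apart.

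The cell line markers VIM, CD44, EGFR, KRT18, KRT8 and CAV1 were all above the count minimum in both libraries, whereas the hormone receptor genes ESR1 and PGR had at most 1 count. ERBB2 had 230 parental and 174 RT-R counts, and GATA3, a luminal marker, had 152 and 113. CDH1 and EPCAM, also listed as low or absent in such a line, went the other way. CDH1 had 32 parental and 68 RT-R counts, and EPCAM had 15 and 26. Neither reached a 2-fold difference, and the interval of the EPCAM ratio included equal expression. Of 13 leukocyte markers, 7 had no count in either library, among them PTPRC and CD3E, and their summed level was 41.5 CPM (the count scaled to a common library total) in parental and 49.8 in RT-R cells, most of it from CD68. CD14, a monocyte marker, had 14 and 39 counts, whereas CSF1R had 18 and 3 and LYZ had 5 and 2. Endothelial markers summed to 24.2 and 5.59 CPM, nearly all from PECAM1 (223 and 50 counts, 4.97-fold lower), while VWF, CDH5 and KDR had at most 4 counts. Fibroblast markers summed to 12.0 and 10.6 CPM.

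The promoters of the cluster genes are shown first. The choice of genes did not use these sequences, but the letters searched for were taken from the CXCL1 promoter. Promoter sequences were found in RefSeq (build GRCh38.p14) for 6 of the 9 genes, without CCL2, CCL5 and CXCL16. Each line below gives the 100 bases before the transcription start in the direction of the gene, and capitals mark matches to the NF-kB consensus on either strand or to GGAATTTCC. CXCL6, a cluster neighbour, is added for comparison. The windows are chr4:73869293-73869392 (plus strand) for CXCL1, chr4:74099196-74099295 (minus strand) for CXCL2 and chr4:74038690-74038789 (minus strand) for CXCL3. They are chr4:73998678-73998777 (minus strand) for CXCL5, chr4:73740469-73740568 (plus strand) for CXCL8, chr4:73836578-73836677 (plus strand) for CXCL6 and chr2:227813742-227813841 (plus strand) for CCL20.
CXCL1: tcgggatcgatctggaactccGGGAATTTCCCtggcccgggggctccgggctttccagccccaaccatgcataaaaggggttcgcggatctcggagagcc
CXCL2: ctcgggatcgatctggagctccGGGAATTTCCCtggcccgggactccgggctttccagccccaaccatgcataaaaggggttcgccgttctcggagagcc
CXCL3: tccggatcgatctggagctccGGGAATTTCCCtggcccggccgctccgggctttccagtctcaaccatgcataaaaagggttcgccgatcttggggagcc
CXCL5: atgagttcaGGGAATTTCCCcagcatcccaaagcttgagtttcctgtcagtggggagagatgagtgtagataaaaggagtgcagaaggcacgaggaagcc
CXCL8: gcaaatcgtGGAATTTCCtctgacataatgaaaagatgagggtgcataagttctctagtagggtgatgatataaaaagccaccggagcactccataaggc
CXCL6: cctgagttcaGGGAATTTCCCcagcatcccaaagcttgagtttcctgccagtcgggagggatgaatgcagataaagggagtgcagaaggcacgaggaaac
CCL20: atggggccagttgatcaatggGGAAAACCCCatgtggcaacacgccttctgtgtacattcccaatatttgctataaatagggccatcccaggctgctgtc

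The letters GGGAATTTCC were copied from the CXCL1 match to the NF-kB consensus, and GGAATTTCC is that match without its first base. The CXCL1 match was therefore fixed in advance. The CXCL1, CXCL2 and CXCL3 windows are alike over most of their length, so their matches are not separate occurrences. The 9 letters GGAATTTCC were present in the promoters of CXCL1, CXCL2, CXCL3, CXCL5 and CXCL8. This is 5 of the 6 members with a promoter sequence, against 0.461% of 35116 promoters of the same 300 bases. The longer form GGGAATTTCC was in 4 of the 6, all but CXCL8 and CCL20, against 0.145% of all promoters. It began at position -79 from the transcription start in CXCL1 and CXCL3, at -78 in CXCL2 and at -91 in CXCL5. In CXCL8 the shorter form began at -91. CCL20 held another match to the NF-kB consensus, on the opposite strand at -79, and that consensus was in 5.91% of all promoters. Of 9390 measured genes with a promoter sequence, members included, 58 held GGAATTTCC, 26 held GGGAATTTCC and 850 held the consensus. CXCL1, CXCL2, CXCL3 and CXCL5 also held 1 overlapping match each on the opposite strand, shifted by 1 base. The AP-1 sequence TGANTCA was found only in CXCL8 among the 6, at -137, against 7.71% of all promoters. TATAAA was found in CXCL8 and CCL20, at -31 and -29, against 11.5% of all promoters. All motifs were searched on both strands from 250 bases before to 50 after the start, and a match is a description of the letters only.

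Chemokine transcripts were more abundant in the resistant line, with 5 of the 9 genes higher: CCL20, CXCL5, CXCL3, CXCL2 and CXCL1. CXCL8 and CXCL16 did not reach a 2-fold difference, and CCL2 and CCL5 were almost absent from both lines. To be called, a gene needed 20 counts or more in 1 of the libraries, a 2-fold or greater ratio of scaled counts after a pseudocount of 0.5 was added, and an interval that left out 1. By this rule 6.89% of 12644 measured genes were higher and 3.97% were lower, and none of the 9 chemokine genes was lower. The genes passing the 20-count minimum numbered 7 of 9, and CXCL5 passed through its RT-R counts alone, so it could only be measured as higher. With 20 counts required in both libraries, a rule added after the data were seen, 4 of 6 chemokine genes were higher, against 3.60% of all genes so measured. The median log2 ratio of the 7, CXCL5 included, was 1.66, and that of all measured genes was -0.013. Over the 6 chemokine genes with 20 counts in both libraries the median was 1.48. At 1.5-fold, 4-fold and by 2-fold alone without the interval, the numbers of higher genes were 5, 3 and 5 of 9, against 13.7%, 2.31% and 6.99% of all measured genes. Together the 9 genes took 0.0318% of all parental counts and 0.0735% of all RT-R counts.

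**Figure D1:**
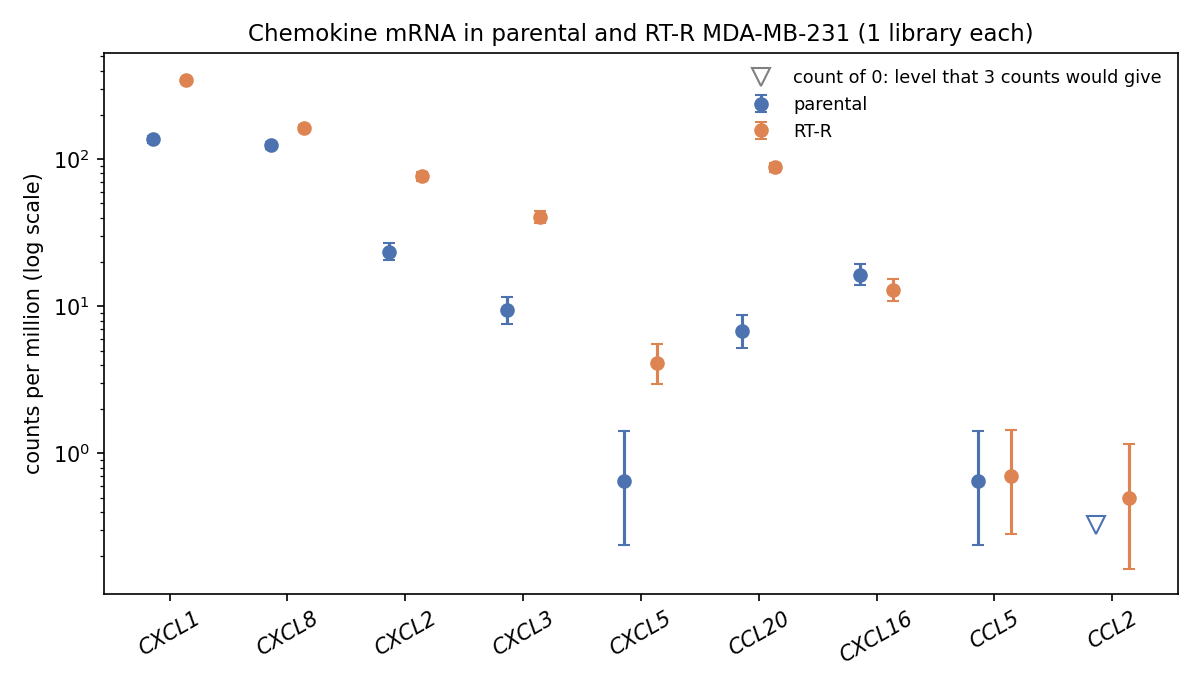
CPM of the 9 chemokine genes on a log axis, 1 library per line, with points for the parental (blue) and RT-R (orange) libraries and bars for exact Poisson 95% intervals. CXCL1 and CXCL8 are the most abundant in both lines, CCL20 moves from 6.81 to 88.2, and CCL2 and CCL5 lie below 1; the open triangle marks the level of 3 counts for a gene with none.

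CXCL1, first known as melanoma growth-stimulatory activity and a ligand of CXCR2, was the most abundant of the 9 in both lines. It had 1262 counts in the parental library, or 136 CPM (129 to 144), and 3480 in RT-R, or 347 (336 to 359). The RT-R value was the higher and the intervals did not overlap. The ratio was 2.47 (2.32 to 2.64). By level it moved from rank 1492 to rank 473 among all symbols.

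CXCL2 and CXCL3 are the closest relatives of CXCL1 and bind the same receptor. CXCL2 had 218 parental and 769 RT-R counts, or 23.6 (20.5 to 26.9) and 76.8 (71.5 to 82.4) CPM, a ratio of 3.16 (2.72 to 3.69). CXCL3 had 87 and 407 counts, or 9.40 (7.53 to 11.6) and 40.6 (36.8 to 44.8) CPM, a ratio of 4.19 (3.32 to 5.35). Both were higher in RT-R with no overlap between the libraries' intervals. Because the genes are alike, reads could be assigned to the wrong copy. In the last 300 bases of the GENCODE transcripts, where 3' tags fall, 46 of 251 stretches of 50 bases (18.3%) in CXCL1 also occurred in CXCL2, and as many in CXCL2 occurred in CXCL1. No such exact stretch was shared by CXCL3 with any other annotated transcript, and its ratio was the largest of the 3 relatives. The values of CXCL1 and CXCL2 are therefore less certain as separate genes than their intervals show.

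CXCL5, another CXCR2 ligand, was scarce in the parental line. It had 6 parental and 41 RT-R counts, or 0.648 (0.238 to 1.41) and 4.09 (2.94 to 5.55) CPM. The RT-R level was the higher, and the ratio of 6.13 carried a wide interval (2.59 to 17.7) set by the 6 parental counts. With a pseudocount of 5 in place of 0.5 its log2 ratio was 1.95 in place of 2.52.

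CXCL8, or interleukin-8, which acts on both CXCR1 and CXCR2, differed less between the lines than CXCL1 and CXCL2 did. It had 1149 parental counts, or 124 CPM (117 to 132), and 1638 RT-R counts, or 164 (156 to 172). The RT-R level was the higher, and the interval of the ratio, 1.28 (1.18 to 1.38), excluded both equal expression and a 2-fold difference. The log2 ratio, 0.35, was close to the median absolute log2 ratio of all measured genes, 0.34. In the parental line there were 1.098 CXCL1 counts for each CXCL8 count, and in RT-R there were 2.12.

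CCL20, the ligand of CCR6, showed the largest ratio of the measured members. It had 63 parental counts, or 6.81 CPM (5.23 to 8.71), and 883 RT-R counts, or 88.2 (82.4 to 94.2). The RT-R library was far above the parental one, with a ratio of 12.6 (9.73 to 16.5), the 98th highest log2 ratio among 12644 measured genes. By level CCL20 moved from rank 9836 to rank 2380. In RT-R it had 2.17 counts for each CXCL3 count, and in the parental line 0.724.

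CXCL16, made as a membrane protein that can be shed and that binds CXCR6, went the other way. It had 152 parental and 130 RT-R counts, or 16.4 (13.9 to 19.3) and 13.0 (10.8 to 15.4) CPM, and was 1.30-fold lower in RT-R (1.02 to 1.66). The libraries' intervals overlapped, and the difference was short of 2-fold. Under total-count scaling, with a size ratio of 1.08 in place of 1.12, the interval of the ratio would include equal expression. CXCL16 overlaps MED11 in the gene table, which went from 352 to 273 counts and was itself 1.44-fold lower (1.22 to 1.69). Strand use is not given, so reads of these genes cannot be told apart.

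CCL2 and CCL5, which attract monocytes and T cells, were barely detected. CCL2 had 0 parental and 5 RT-R counts. Set against 3 counts in the parental library, the level used here for a count of 0, the 5 RT-R counts would be 1.49-fold higher. That value leaves out the counting error of the 5, and the lower end of the counting interval lay below equal expression. CCL5 had 6 and 7 counts, a ratio of 1.05 (0.301 to 3.77). A difference in either gene was not detectable at this depth.

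**Figure D2:**
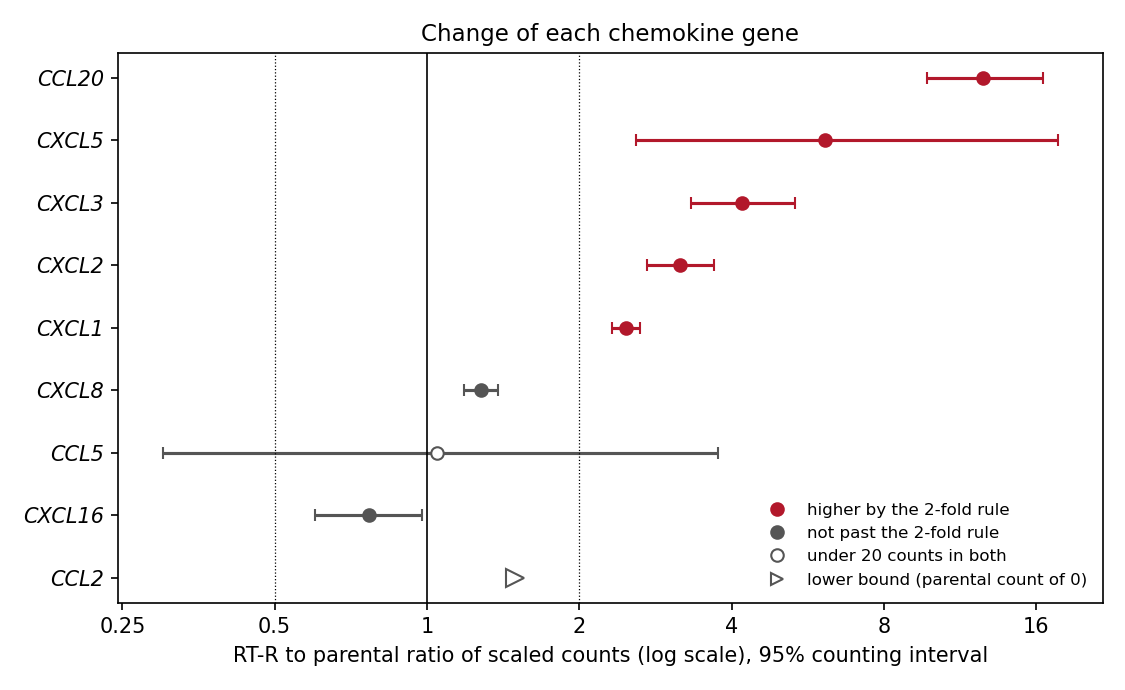
RT-R to parental ratio of scaled counts for each of the 9 genes on a log axis, with 95% counting intervals, 1 library per line; the solid line marks equal expression and the dotted lines 2-fold. The ratios run from 0.767 for CXCL16 to 12.6 for CCL20. CCL2, with no parental count, is drawn at 1.49, its value against 3 parental counts. That mark leaves out the counting error of its RT-R counts, so it is not a bound at the 95% level.

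The measured genes fell in the order CCL20, CXCL5, CXCL3, CXCL2, CXCL1, CXCL8 and CXCL16 by ratio. Neighbours in this order were compared by the ratio of their ratios, which does not depend on library scaling. Because the order was taken from the same ratios, each value lies above 1 in advance, and the intervals do not allow for this choice. CCL20 over CXCL5 was 2.05 (0.685 to 5.11), CXCL5 over CXCL3 was 1.46 (0.591 to 4.34) and CXCL3 over CXCL2 was 1.33 (0.999 to 1.77), so these 3 pairs did not differ beyond counting error. CXCL2 over CXCL1 was 1.28 (1.08 to 1.51), CXCL1 over CXCL8 was 1.93 (1.75 to 2.14) and CXCL8 over CXCL16 was 1.67 (1.29 to 2.15), and these did. The stretches that CXCL1 and CXCL2 share make their comparison less certain than its interval shows. Among genes further apart, CCL20 over CXCL3 was 2.99 (2.09 to 4.30). Of the 5 cluster genes, CXCL8 had the smallest ratio.

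The mix of chemokine messages shifted accordingly. CXCL1 and CXCL8 together made up 81.9% (80.5 to 83.3, exact binomial interval) of the 2943 parental chemokine counts and 69.5% (68.5 to 70.6) of the 7360 RT-R counts. CXCL8 alone went from 39.0% (37.3 to 40.8) to 22.3% (21.3 to 23.2), and CCL20 from 2.14% (1.65 to 2.73) to 12.0% (11.3 to 12.8). The share of CXCL1, CXCL2 and CXCL3 together went from 53.2% (51.4 to 55.1) to 63.3% (62.1 to 64.4). CXCL16 went from 5.16% (4.39 to 6.03) to 1.77% (1.48 to 2.09). These shares do not depend on library scaling, and the smaller share of CXCL8 in RT-R went with a level that was not lower than in the parental line.

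**Figure D3:**
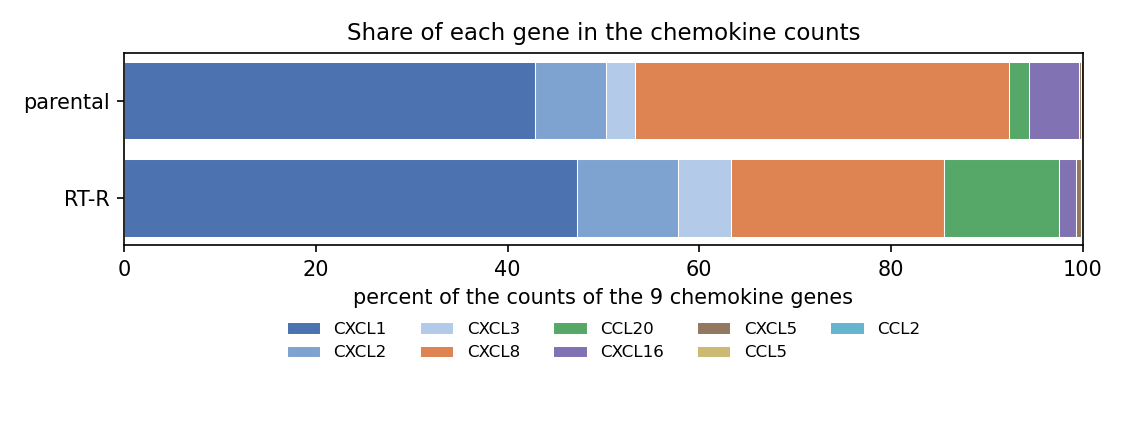
Share of each gene in the summed counts of the 9 chemokine genes, as stacked bars for the parental (2943 counts) and RT-R (7360 counts) libraries. The CXCL8 segment narrows from 39.0% to 22.3% and the CCL20 segment widens from 2.14% to 12.0%.

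The higher cluster genes were next set among their neighbours on chromosome 4. CXCL6, which has the same GGGAATTTCC letters at -90, had no count in either library. The exact Poisson interval then allows up to 0.399 CPM in parental and 0.368 CPM in RT-R cells. The platelet chemokine genes PF4V1 and PPBP had 0 and 0 counts and 0 and 1, and PF4 had 2 and 13, a ratio of 5.83 (1.32 to 53.2) under the count minimum. CXCL1, CXCL2, CXCL3 and CXCL8 thus stood beside CXCL6, PF4V1 and PPBP, which had at most 1 count in a library. CXCL5, with 6 parental counts, and PF4 were both scarce in the parental line. The nearest measured genes outside the cluster were ALB, with 529 and 332 counts and 1.78-fold lower (1.55 to 2.04), and MTHFD2L, with 24 and 29 counts and a ratio of 1.08 (0.609 to 1.94). Over the 30 nearest measured genes, 15 on each side, the median log2 ratio was 0.076 for CXCL1, CXCL5 and CXCL8 and 0.082 for CXCL2 and CXCL3. Of those 30 genes, 4 were higher and 1 lower by the 2-fold rule for CXCL1, CXCL2, CXCL3 and CXCL5. For CXCL8 they were 5 and 1. Over all measured genes, 6.89% were higher and 3.97% lower. The members serve as one another's neighbours there, in the medians and the counts alike. Relative to these medians CXCL1 was 2.35-fold, CXCL2 2.98-fold, CXCL3 3.95-fold and CXCL5 5.46-fold higher, and CXCL8 1.21-fold.

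The genes around CCL20 had a higher median. Its 30 nearest measured genes on chromosome 2 had a median log2 ratio of 0.58, and 7 of them were higher by the 2-fold rule and 0 lower. The shares over all measured genes were 6.89% and 3.97%. AGFG1 on one side had 309 and 522 counts, and PID1 on the other had 70 and 402. Relative to its neighbours CCL20 was 8.35-fold higher, in place of 12.6. On chromosome 17 the neighbour medians were 0.063 for CCL2, -0.019 for CCL5 and 0.036 for CXCL16. Of 30 neighbours each, 2, 1 and 0 were higher in that order, and 0 were lower. CCL2 lay between CDK5R1 (214 and 291 counts) and ZNF830 (154 and 237). CCL5 lay between TAF15 (605 and 803) and RDM1 (51 and 83), and CXCL16 between MED11 and PSMB6 (2304 and 2259). Whether copy number differs between the lines was not tested.

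**Figure D4:**
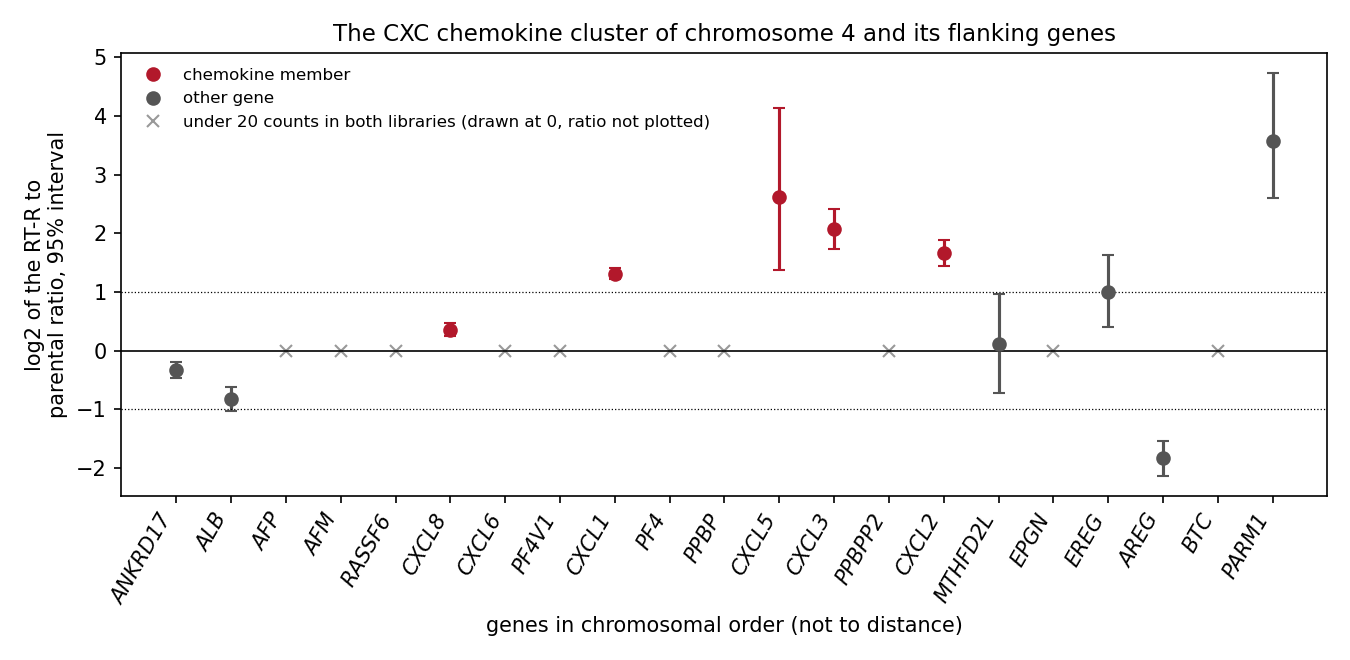
Log2 ratio of RT-R to parental scaled counts with 95% counting intervals for genes in chromosomal order from ANKRD17 to PARM1, chemokine members in red and other genes in grey, 1 library per line. The members CXCL1, CXCL5, CXCL3 and CXCL2 lie above the 2-fold line and CXCL8 below it. Crosses mark genes under 20 counts in both libraries, PF4 and PPBP among them, and their height shows no ratio.

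Chemokine messages are often short-lived because AU-rich elements in their 3' untranslated regions attract decay proteins, so these elements were counted in the GENCODE transcripts. The pentamer ATTTA occurred 10 times in CXCL2, 9 in CXCL8, 7 in CXCL3, 5 in CXCL1, 11 in CXCL5 and 3 in CCL20, but once each in CCL2 and CXCL16 and 0 times in CCL5. Per kilobase this was 13.9 in CXCL2, 10.4 in CXCL3, 7.19 in CXCL8, 7.08 in CXCL1, 6.65 in CCL20 and 5.51 in CXCL5, against a median of 1.63 over 11261 measured genes. CCL2 had 2.66 per kilobase, also above that median, and CXCL16 had 1.02. The longer TTATTTATT was present in CXCL2 (5 times), CXCL1 (3), CXCL3 (1) and CXCL8 (1), against 8.59% of measured genes.

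Of the genes for proteins that bind such elements, 1 of 9 was higher and 0 lower, with a median log2 ratio of 0.018. The higher gene was ZFP36, which encodes tristetraprolin, a factor that promotes decay of AU-rich messages, with 15 and 43 counts and a ratio of 2.57 (1.40 to 4.98). It passed the count minimum through RT-R alone. ZC3H12A, an endonuclease that degrades inflammatory messages, had 931 and 1863 counts and a ratio of 1.79 (1.66 to 1.94), short of 2-fold.

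Among genes for inducing cytokines and their receptors, 2 of 15 measured genes were higher and 1 lower, with a median of 0.13. The higher ones were the interleukin-1 genes, ligands that induce many chemokines. IL1B had 112 and 1083 counts and a ratio of 8.67 (7.13 to 10.6), and IL1A had 46 and 300 counts and a ratio of 5.85 (4.28 to 8.16). The lower gene was IL17RC, a receptor subunit for interleukin-17, with 131 and 31 counts, 4.71-fold lower (3.17 to 7.22). IL1R1, the signalling receptor for interleukin-1, had 35 counts in each library, and TNF had 1 and 0.

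No NF-kB subunit or inhibitor passed the 2-fold rule. Of 15 measured genes 0 were higher and 0 lower, with a median log2 ratio of -0.11. NFKBIA, the inhibitor that NF-kB itself induces, went from 4347 to 3534 counts, or 1.37-fold lower (1.31 to 1.43). Other genes of the list lay on both sides of equal expression. TNFAIP3 had a ratio of 1.19 (0.858 to 1.66), NFKBIE 1.17 (0.954 to 1.45) and RELA 1.17 (1.09 to 1.25). NFKB2 was 1.89-fold lower (1.52 to 2.36). Among AP-1 and C/EBP factors, 1 of 10 was higher and 0 lower, with a median of 0.32. The higher gene was CEBPB, a factor known to act with NF-kB at the CXCL8 promoter, with 895 and 2032 counts and a ratio of 2.04 (1.88 to 2.20). Messenger levels do not measure the activity of these proteins.

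Receptors that pair with the members had low counts. CXCR1, CCR2, CXCR6 and ACKR1 had no count in either library. CXCR2 had 0 and 1, and ACKR2, a scavenger of CC chemokines, had 3 and 6. CCR6, the receptor of CCL20, had 1 and 4 counts, a ratio of 3.59 (0.355 to 177). CCR1, a receptor of CCL5, had more, with 4 and 14 counts and a ratio of 3.14 (0.986 to 13.1). None of these receptors reached 20 counts in a library. Of 23 receptor genes 3 were measured, 0 were higher and 0 lower, with a median of -0.20. CCRL2, an atypical receptor, went from 174 to 103 counts, or 1.88-fold lower (1.47 to 2.43). CXCR5 was listed with 2116 and 2052 counts, but it overlaps BCL9L (1669 and 1743 counts) in the gene table and cannot be told apart from it without strand.

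Few other chemokine ligands were expressed. Of 25 further CC ligands 3 were measured, 1 was higher and 0 lower. CCL28, a ligand made by epithelia, was the higher one, with 24 and 69 counts and a ratio of 2.58 (1.60 to 4.29). CCL26 went from 84 to 59 counts, or 1.59-fold lower (1.12 to 2.25). Of 14 further CXC, XC and CX3C ligands 1 was measured, CX3CL1 or fractalkine, and it was lower with 25 and 12 counts, 2.32-fold (1.12 to 5.08). It passed the count minimum through the parental library alone. The interferon-induced ligand CXCL10 had 10 and 2 counts, 5.58-fold lower (1.19 to 52.3) but under the count minimum.

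Proteases that shed or trim chemokines had 2 of 8 measured genes higher and 0 lower, with a median log2 ratio of 0.33. They were MMP1, with 8 and 2064 counts and a ratio of 231 (117 to 537), and MMP9, with 9 and 48 counts and a ratio of 4.78 (2.32 to 11.1). Both passed the count minimum through RT-R alone. ADAM10, which sheds CXCL16, had 465 and 546 counts and a ratio of 1.05 (0.929 to 1.19), and ADAM17 had 263 and 532 counts and a ratio of 1.81 (1.56 to 2.11). Of 11 measured genes for heparan sulphate carriers and enzymes, which hold chemokines at the cell surface, 0 were higher and 0 lower, with a median of -0.026.

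**Figure D5:**
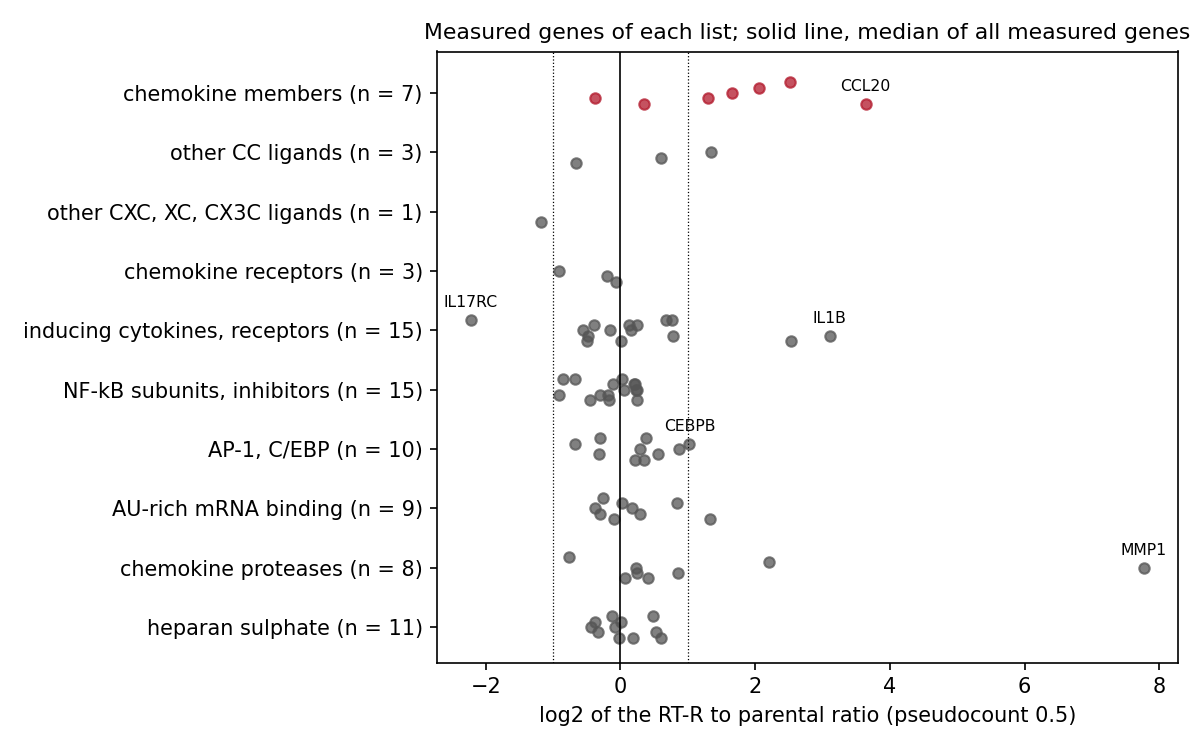
Log2 ratio of RT-R to parental scaled counts for every measured gene of each list (1 point per gene), 1 library per line, with the median of all measured genes as a solid line and 2-fold as dotted lines. Of the chemokine members 5 lie right of the upper dotted line, whereas no NF-kB subunit or inhibitor lies outside the dotted lines.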

How the data were processed

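Total RNA of each line was made into a Lexogen QuantSeq 3' tag library, 1 per line, per the labels' protocols. The values deposited by the authors are unnormalized integer counts for each gene symbol. The submitters' processing notes name Bowtie2, bedtools, the hg19 build and bcl2fastq (2.20.0.422). Annotation, strand use and the treatment of multi-mapping reads are not stated there. A 3' tag is counted once per transcript end, so levels are given as CPM without length scaling.

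Repeated symbols were summed, and none of the 9 genes was repeated. Scaling used TMM (trimmed mean of M-values; edgeR 4.0.16, R 4.3.3; size ratio 1.12), and edgeR was used for scaling alone. Log2 ratios used a pseudocount of 0.5, and a call required that log2 ratio to reach 2-fold. Ratios carry exact conditional (Clopper-Pearson) intervals from scipy 1.17.1, and ratios of ratios carry exact conditional odds ratio intervals. The calculations were tested on simulated counts. The genes named are the 9 members, the called genes of each list (at most 4), the members' receptors and their nearest measured neighbours; a receptor that this rule names is not reported here, and other genes named were chosen after their values were seen. Members and lists were chosen with earlier results of these data known, and the promoter motifs and AU-rich elements after the sequences were at hand. Gene order came from RefSeq (GRCh38.p14), which placed 98.6% of measured genes, and transcripts from GENCODE release 29. Because counts were made on hg19, printed coordinates refer to the RefSeq promoters alone. Alternatives were other scalings (DESeq2 1.42.0 for the median of ratios), pseudocounts, count minimums, folds, treatment of repeated symbols and subtraction of neighbours.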

Additional observations from a re-analysis of the deposited data

How the results depend on the processing

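At a 4-fold threshold the number of higher chemokine genes was 3 (CCL20, CXCL5 and CXCL3) in place of 5, against 2.31% of all measured genes. It was 5 under total-count, median-of-ratios and upper-quartile scaling, without a count minimum, at 1.5-fold, by fold alone and with the largest row kept for a repeated symbol. Keeping the largest row could change no member value here or below, because none of the 9 genes was repeated. With a minimum of 100 counts in 1 of the libraries the number was 4. CCL20 and CXCL3, with 63 and 87 parental counts, passed that minimum through RT-R alone, so they could only be measured as higher. The share of all genes at that minimum was not computed. With 20 counts required in both libraries the number was also 4. None was lower under any of these. The median log2 ratio ranged from 1.48 (minimum of 100 counts, or of 20 in both libraries) to 1.70 (total-count scaling). Of 54 single-gene values, 6 alternatives for each of 9 genes, 1 left its counting interval: the log2 ratio of CCL20 was 3.06 after its neighbours were subtracted, against 3.64. That of CCL2, whose interval has no upper end, was 0.96 with a pseudocount of 5, against 3.39. No paired analysis was possible because each line had 1 library. Depth limits CCL2, CCL5 and CXCL5, whose parental counts were 0, 6 and 6.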

Other observations

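Beyond the chemokine cluster on chromosome 4 lie genes for growth factors of the epidermal growth factor family, which differed among themselves. These genes were chosen after their values were seen. AREG, which encodes amphiregulin, had 410 parental and 128 RT-R counts and was 3.57-fold lower (2.92 to 4.39). EREG, which encodes epiregulin, had 34 and 76 counts and a ratio of 2.00 (1.32 to 3.10), but its log2 ratio with the pseudocount, 0.99, was just short of the 2-fold rule. BTC (3 and 9 counts) and EPGN (2 and 4) were under the count minimum. PARM1, the next gene, went from 9 to 119 counts (ratio 11.9, 6.04 to 26.6).

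The sequence features described in the chemokine genes were also looked up in all other measured genes. Of 53 other measured genes with GGAATTTCC in the promoter, 5 (9.43%) were higher by the 2-fold rule and 4 (7.55%) lower, with a median log2 ratio of 0.029, against 6.89% and 3.97% of all measured genes. Of 22 others with GGGAATTTCC, 4 (18.2%) were higher and 1 (4.55%) lower, with a median of 0.076. Of 845 others with the NF-kB consensus, 60 (7.10%) were higher and 30 (3.55%) lower. Of 760 others with TATAAA, 73 (9.61%) were higher and 41 (5.39%) lower. Of 657 others with TGANTCA, 60 (9.13%) were higher and 34 (5.18%) lower. The shares of all measured genes are over 12644 genes, of which 9390 had a promoter sequence. Of 216 others with at least 2 copies of TTATTTATT in the 3' untranslated region, 13 (6.02%) were higher and 3 (1.39%) lower. No test was made of these shares.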
